A study of Homo sapiens with 12 samples.

Results

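The 42 genes described here are the subunits of the hypoxia-inducible factor (HIF), listed targets of HIF and the genes of glycolysis, chosen by name from a table of read counts over 63677 genes. By symbol 41 of them matched a gene of the table; INSIG2-AS1 was not analysed here. Of the 41, 40 passed edgeR's filter on low counts, by which 18674 genes were tested in all. The exception was CA9, a membrane carbonic anhydrase and a classic HIF target, which had 0 to 9 reads per library. It took no part in the counts of tested members below, except in the fit without that filter. The counts of promoter windows include it.

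RNA-seq of polyadenylated RNA was performed on 3 mantle cell lymphoma (MCL) cell lines, JEKO1, JVM2 and MAVER1, to follow their response to ironomycin, a salinomycin derivative that traps iron in lysosomes, and to ibrutinib, an inhibitor of the kinase BTK. Each line was kept for 48 h under 4 treatments (control, ironomycin, ibrutinib, or the 2 drugs together) and gave 1 library per treatment. JEKO1 received 50 nM ironomycin and 0.5 μM ibrutinib. JVM2 received 250 nM and 1.5 μM of these drugs, and MAVER1 received 250 nM and 6.25 μM. The cell line therefore cannot be told apart from the ibrutinib dose. Between JEKO1 and the other lines it cannot be told apart from the ironomycin dose either. Every treatment thus has 3 replicates, 1 from each line (n = 3), no agent is named for the control, and each line is a single established culture, so p-values of the treatment comparisons measure the spread between these lines only.

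HIF is a pair of a regulated subunit, encoded by HIF1A or EPAS1, and the constant partner ARNT. In the presence of oxygen and iron, prolyl hydroxylases mark the regulated subunit, and VHL then directs it to degradation, so that HIF is controlled mainly at the protein level, which was not measured here. Stabilised HIF raises transcription of glucose transporters, of most glycolytic enzymes, of the kinases that keep pyruvate out of mitochondria, of mitophagy receptors and of vascular growth factors, while the glycolytic enzymes are also transcribed at a high level in growing lymphoid cells without hypoxia.

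The libraries held 35448523 to 38630809 counted reads, and their TMM factors ran from 0.914 to 1.19, with the highest value in JEKO1 with both drugs, the smallest library. All 6 B cell markers were detected in every library (summed level 1219 to 2104 CPM, reads relative to library size). Cyclin D1 (CCND1), the defining transcript of MCL, stood at 216 CPM or more in every library, while SOX11 had no read in JVM2. Markers of other cell types were low, with summed levels of at most 3.22 CPM for T cells, 8.73 for myeloid cells, 24 for epithelium, 32.9 for fibroblasts (all of it COL1A1, with DCN at 0) and 0.717 for endothelium (PECAM1 at 0). With both drugs CD3E, CD3G and LYZ were called lower and EPCAM higher at these low levels, and the B cell marker CD79A lower; their part in the results was not tested. The share of reads on genes of the mitochondrial genome was 1.92 to 2.05% in the controls and 0.883% in JEKO1, 1.89% in JVM2 and 1.21% in MAVER1 with both drugs.

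With both drugs most glycolytic enzymes fell, with a median log2 ratio to the control of the same line of -1.0 in JEKO1, -1.21 in MAVER1 and -0.25 in JVM2, while the members outside glycolysis went in both directions. In bulk RNA, fewer cells expressing a gene and less RNA per cell cannot be told apart. Of the 40 tested members, 18 were called differentially expressed against control (edgeR's quasi-likelihood test over all genes tested, Benjamini-Hochberg adjusted p-value under 0.05), 16 lower and 2 higher. Over all genes, 28.2% were called in this comparison, 14.0% lower and 14.2% higher. At an unadjusted p-value under 0.05, 22 members stood against 41.1% of all genes. The 16 that fell were the glucose transporters SLC2A1 and SLC2A3 and 14 of the 17 glycolytic enzymes. The 2 that rose were VEGFA and NDRG1. The median log2 fold change of the 17 enzymes was -0.70, with none higher, against 0.05 over all genes tested.

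**Figure D1:**
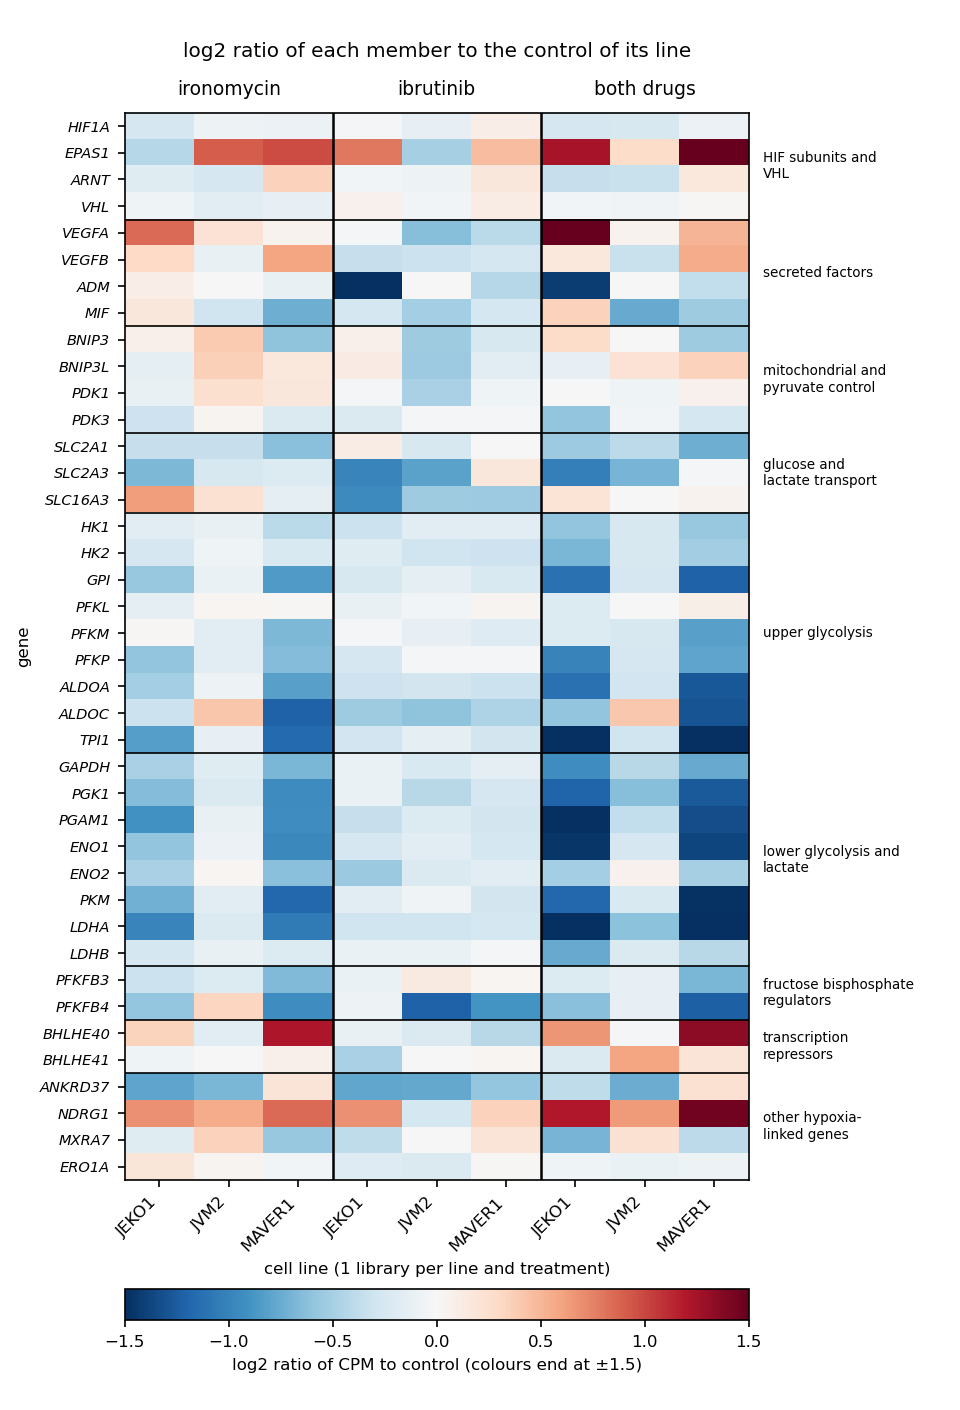
Log2 ratio of each tested member to the control library of its own line (colour; blue is lower and red is higher), for ironomycin, ibrutinib and both drugs in JEKO1, JVM2 and MAVER1, with genes grouped by role and 1 library per square. The glycolytic enzymes are darkest blue in JEKO1 and MAVER1 with both drugs and pale in JVM2; EPAS1 in JEKO1 and MAVER1, ADM and BHLHE41 in JVM2 rest on few or no reads.

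The number of members called rested on the lines in the fit. Without JVM2, 22 of 39 members were called with both drugs against control, and without JEKO1 or without MAVER1 none was (17 and 20 at an unadjusted p-value under 0.05). Calls over all genes moved in the same way, with 6103 of 17985 without JVM2, 37 of 17875 without JEKO1 and 22 of 18851 without MAVER1, so these counts are no result about the members. Directions were kept more widely than calls: in the fit without JEKO1 the median of the enzymes was -0.59 with 1 of 17 higher, and in the fit without MAVER1 it was -0.67 with none higher. With library totals in place of TMM factors the median over all genes shifted from 0.05 to 0.18, and 16 of the 17 enzymes were lower, with a median of -0.57.

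Lactate dehydrogenase A (LDHA), which turns pyruvate into lactate, showed the largest fall of the 40. Its level was 1541, 774, 1248 and 435 CPM in JEKO1, 1480.5, 1277, 1202 and 967 in JVM2 and 1756, 839, 1465 and 614 in MAVER1, given here and for every gene below in the order control, ironomycin, ibrutinib and both drugs, and as CPM scaled by TMM. The 3 libraries with both drugs lay below the 3 controls without overlap, and after ironomycin alone JEKO1 and MAVER1 were below all 4 JVM2 libraries. The log2 fold change with both drugs was -1.31 ± 0.22 (± standard error; edgeR, adjusted p = 0.00392). It was -0.77 ± 0.22 with ironomycin alone (edgeR, adjusted p = 0.0904) and -0.29 ± 0.22 with ibrutinib alone, neither of which passed. Within lines the log2 ratio with both drugs was -0.62 in JVM2, -1.82 in JEKO1 and -1.52 in MAVER1, and the ironomycin effect on LDHA differed between lines (edgeR, adjusted p = 0.00551). LDHB, the subunit with the opposite preference, for lactate, moved less: 514, 428, 481 and 305 CPM in JEKO1, 942, 872, 883 and 814 in JVM2 and 796, 690.0, 777 and 598 in MAVER1. It fell by 0.45 ± 0.11 on the log2 scale with both drugs (edgeR, adjusted p = 0.0127). The ratio of LDHA to LDHB reads, which does not depend on the scaling of libraries, went from 3.00 in the control to 1.43 with both drugs in JEKO1, from 2.21 to 1.03 in MAVER1 and from 1.57 to 1.19 in JVM2.

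The other enzymes below triose phosphate fell in the same lines. PGK1, which makes the first ATP of the pathway, stood at 674, 428, 628 and 293 CPM in JEKO1, 1200.4, 1031, 899 and 769 in JVM2 and 1055, 548, 883 and 440.3 in MAVER1. It was lower with both drugs in each line, and the ranges of controls and combination overlapped, with JVM2 under both drugs above the JEKO1 control. The change was -1.03 ± 0.17 on the log2 scale (edgeR, adjusted p = 0.00383). Phosphoglycerate mutase PGAM1 was counted at 669.6, 357, 526 and 219.6 CPM in JEKO1, 1269, 1178, 1099 and 983 in JVM2 and 661, 346, 546 and 263 in MAVER1, a change of -1.09 ± 0.21 (edgeR, adjusted p = 0.00579). Every JVM2 library exceeded every library of the other lines in PGAM1. Enolase ENO1, the enzyme before pyruvate kinase, read 2770.5, 1844, 2322 and 1004 CPM in JEKO1, 2905, 2734, 2598 and 2446 in JVM2 and 3839.9, 1965, 3203 and 1481 in MAVER1. No control library overlapped a library with both drugs, and the fold change was -1.01 ± 0.22 (edgeR, adjusted p = 0.00948).

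Pyruvate kinase PKM, which makes pyruvate, had 2159.7, 1311, 1933 and 952 CPM in JEKO1, 3192, 2846, 3081 and 2735 in JVM2 and 4325, 1918, 3567 and 1544 in MAVER1. MAVER1 held the most PKM of the 3 controls and less than JVM2 after ironomycin. PKM fell by 0.96 ± 0.21 on the log2 scale with both drugs (edgeR, adjusted p = 0.00984). GAPDH, often taken as a reference gene, was the most abundant member per kilobase of exon in each control, and it stood at 3059, 2192, 2846 and 1609.9 CPM in JEKO1, 3911, 3445, 3339.5 and 2925 in JVM2 and 3247, 2013, 2946 and 1924 in MAVER1. All 3 libraries with both drugs were below all 3 controls, a change of -0.70 ± 0.14 (edgeR, adjusted p = 0.00644). ENO2, the neuronal enolase, was the exception among the enzymes of this stretch: 21.6, 15.4, 14.7 and 15.2 CPM in JEKO1, 178, 181, 153 and 186 in JVM2 and 14.1, 9.10, 12.7 and 10.0 in MAVER1. It was -0.30 ± 0.14 with both drugs and did not pass (edgeR, adjusted p = 0.139), and JVM2 held more of it than the other lines in every library.

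**Figure D2:**
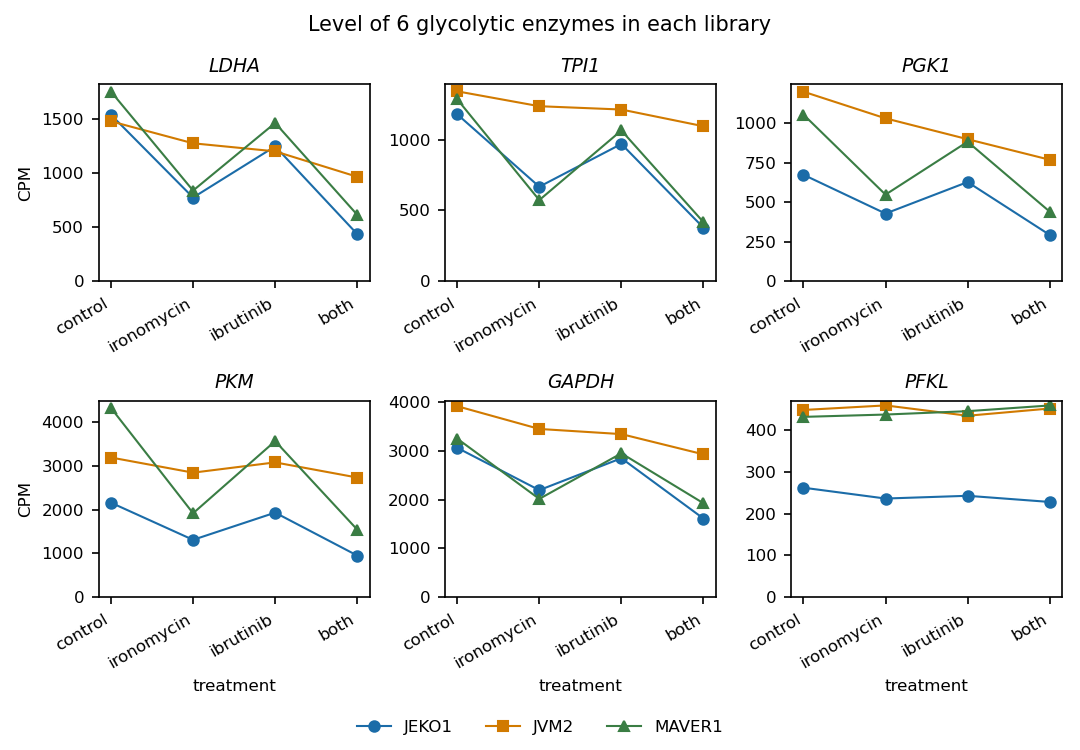
Level of LDHA, TPI1, PGK1, PKM, GAPDH and PFKL in CPM (vertical axes from 0) in each of the 12 libraries; a line joins the 4 treatments of a cell line and is no time course. Blue circles (JEKO1) and green triangles (MAVER1) drop with ironomycin and further with both drugs for 5 of the 6 enzymes, orange squares (JVM2) drop less, and PFKL stays level in every line.

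In upper glycolysis, triose phosphate isomerase TPI1 stood at 1179, 667, 969 and 377 CPM in JEKO1, 1341, 1236, 1212 and 1094 in JVM2 and 1285, 572, 1064 and 416 in MAVER1. JEKO1 and MAVER1 with both drugs were the 2 lowest libraries, and no library with both drugs reached a control. The change was -1.17 ± 0.25 (edgeR, adjusted p = 0.00806). The aldolase ALDOA read 1809, 1273, 1459 and 836 CPM in JEKO1, 2355, 2232, 1942 and 1923 in JVM2 and 2183, 1241, 1753 and 904 in MAVER1, and fell by 0.88 ± 0.18 on the log2 scale (edgeR, adjusted p = 0.0074). Glucose-6-phosphate isomerase GPI had 329, 222, 279 and 152 CPM in JEKO1, 594, 554, 536 and 499 in JVM2 and 706, 393, 602 and 305 in MAVER1. Its change with both drugs was -0.85 ± 0.18 (edgeR, adjusted p = 0.00727), with a level below that of the control in each line.

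Phosphofructokinase, which commits sugar to glycolysis, is built from 3 kinds of subunit, of which PFKP and PFKM were called with both drugs and PFKL was not. The platelet-type subunit PFKP stood at 198, 131, 167 and 99.1 CPM in JEKO1, 347, 308, 339.9 and 290.4 in JVM2 and 87.4, 55.7, 86.3 and 50.6 in MAVER1, a change of -0.68 ± 0.13 with both drugs (edgeR, adjusted p = 0.00615). PFKM, the muscle-type subunit, was counted at 156, 158, 153 and 135 CPM in JEKO1, 162, 146, 149 and 137 in JVM2 and 81.9, 51.3, 71.9 and 46.7 in MAVER1, and fell by 0.42 ± 0.13 (edgeR, adjusted p = 0.0351). The log2 ratio of PFKM with ironomycin alone was -0.15 in JVM2, 0.01 in JEKO1 and -0.67 in MAVER1. The liver-type subunit PFKL ranged from 228 to 459 CPM and had log2 fold changes of -0.03 ± 0.08 for both drugs, -0.03 ± 0.08 for ironomycin and -0.04 ± 0.08 for ibrutinib, the closest to 0 of the 17 enzymes in each of these comparisons. The ratio of PFKP to PFKL reads went from 0.757 to 0.435 in JEKO1, from 0.203 to 0.110 in MAVER1 and from 0.774 to 0.643 in JVM2 between control and both drugs.

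Both hexokinases, which trap glucose in the cell, fell with both drugs. HK2, the HIF-inducible form, read 179, 151, 157 and 111 CPM in JEKO1, 154, 148, 125 and 131 in JVM2 and 139, 119, 112 and 96.5 in MAVER1. The 3 libraries with both drugs did not overlap the 3 controls, with a change of -0.48 ± 0.10 (edgeR, adjusted p = 0.00787). HK1, the constitutive form, had 124, 110.4, 99.0 and 82.6 CPM in JEKO1, 256, 238, 229 and 217 in JVM2 and 85.0, 64.0, 76.5 and 57.4 in MAVER1, and fell by 0.46 ± 0.10 (edgeR, adjusted p = 0.00831). ALDOC, the brain aldolase and a HIF target, read 18.1, 14.5, 12.5 and 12 CPM in JEKO1, 69.9, 93.4, 46.0 and 92.7 in JVM2 and 62.6, 27.1, 45.3 and 25.4 in MAVER1. Both ironomycin libraries of JVM2 were above both without it, and both of MAVER1 were below. Over the 3 lines the change of ALDOC with both drugs was -0.47 ± 0.32 and did not pass, while the difference between lines in its ironomycin effect had the smallest adjusted p-value of the members (edgeR, adjusted p = 0.000131).

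Among the transporters, the glucose carrier SLC2A1 (GLUT1) was counted at 57.9, 45.5, 62.3 and 39.6 CPM in JEKO1, 153, 121, 130.1 and 117 in JVM2 and 221, 143, 220.2 and 132 in MAVER1. Both ironomycin libraries were below both without it in each of the 3 lines, and the change with both drugs was -0.56 ± 0.11 (edgeR, adjusted p = 0.00648). The high-affinity carrier SLC2A3 stood at 4.34, 2.70, 2.16 and 2.10 CPM in JEKO1, 40.9, 34.5, 23.5 and 25.2 in JVM2 and 2.79, 2.42, 3.15 and 2.74 in MAVER1. It fell by 0.62 ± 0.21 (edgeR, adjusted p = 0.0446), a call lost with any of the 3 lines left out, and with ibrutinib alone it was also low in JEKO1 and JVM2 (log2 ratios -0.99 and -0.80). The lactate exporter SLC16A3 (MCT4), a HIF target, had 42, 64.8, 21.6 and 48.4 CPM in JEKO1, 66.1, 77.2, 45.5 and 66.2 in JVM2 and 28.6, 25.9, 19.7 and 29.6 in MAVER1. Ibrutinib alone left it lowest in every line (-0.66 ± 0.17, unadjusted p = 0.00289, edgeR, adjusted p = 1), and with ironomycin on top it was higher than with ibrutinib alone by 0.75 ± 0.17 (edgeR, adjusted p = 0.0141).

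Summed over the 17 enzymes, glycolytic transcripts made up 15664, 10311, 13535 and 6866 CPM in JEKO1, 20806, 18978, 18269 and 16662 in JVM2 and 20755, 11288, 17656 and 9235 in MAVER1. With both drugs the sum was 43.8% of control in JEKO1, 44.5% in MAVER1 and 80.1% in JVM2. Over the 3 lines, the mean ± SD was 19075 ± 2954 CPM for the controls, 10921 ± 5111 for both drugs, 13526 ± 4747 for ironomycin and 16487 ± 2574 for ibrutinib, and no test was made of this sum. The share of reads on mitochondrial genes was lowest in the same 2 libraries, JEKO1 and MAVER1 with both drugs, and its part in the result was not tested. Within the sum, GAPDH took 19.5% in the JEKO1 control and 23.4% with both drugs, and 15.6% and 20.8% in MAVER1, while LDHA went from 9.84% to 6.34% and from 8.46% to 6.65%.

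**Figure D3:**
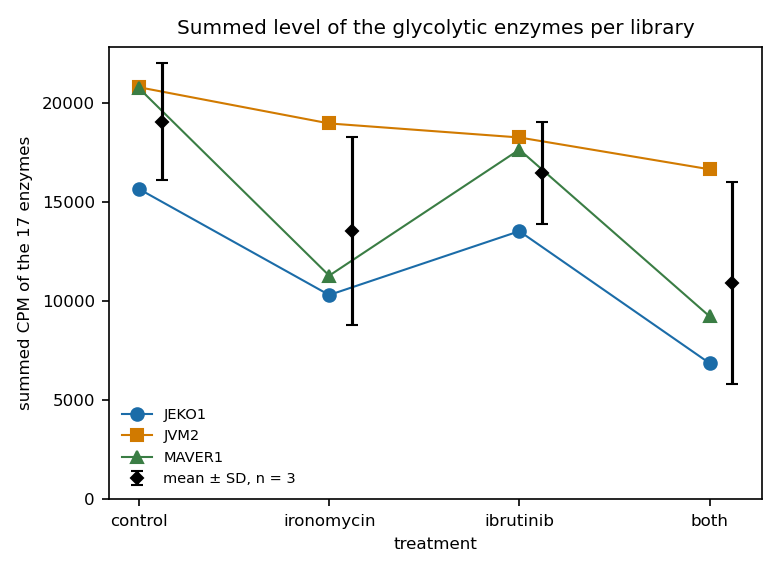
Summed CPM of the 17 glycolytic enzymes (vertical axis from 0) in each library, with coloured points for JEKO1, JVM2 and MAVER1 and black diamonds for the mean ± SD of a treatment (n = 3 lines). JEKO1 and MAVER1 with both drugs stand at 6866 and 9235 CPM, under every control, and JVM2 at 16662.

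Promoters of 5 enzymes that fell and of 2 HIF targets that were not called are shown, so that the core of the hypoxia response element can be read in both kinds. The cores ACGTG and GCGTG, which do not overlap each other, were searched on both strands in the 250 bases before each start in RefSeq's promoters (GRCh38.p14), which hold 36 of the members; BNIP3L, NDRG1, SLC2A3, VEGFA and VHL have no entry. Capitals mark every match. CACGTG reads as ACGTG on either strand and is counted for both.
LDHA, chr11:18394313-18394562, plus strand: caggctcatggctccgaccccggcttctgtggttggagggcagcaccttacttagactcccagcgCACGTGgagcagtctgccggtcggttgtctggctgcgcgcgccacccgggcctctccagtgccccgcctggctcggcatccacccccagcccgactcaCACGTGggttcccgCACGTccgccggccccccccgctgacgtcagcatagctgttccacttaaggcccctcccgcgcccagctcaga
PGK1, chrX:78103998-78104247, plus strand: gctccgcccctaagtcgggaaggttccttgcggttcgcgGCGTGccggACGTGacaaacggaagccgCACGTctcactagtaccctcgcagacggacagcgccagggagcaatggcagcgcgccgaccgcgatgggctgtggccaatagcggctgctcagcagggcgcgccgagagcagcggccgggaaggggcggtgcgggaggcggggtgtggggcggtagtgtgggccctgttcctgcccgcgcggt
ENO1, chr1:8878687-8878936, minus strand: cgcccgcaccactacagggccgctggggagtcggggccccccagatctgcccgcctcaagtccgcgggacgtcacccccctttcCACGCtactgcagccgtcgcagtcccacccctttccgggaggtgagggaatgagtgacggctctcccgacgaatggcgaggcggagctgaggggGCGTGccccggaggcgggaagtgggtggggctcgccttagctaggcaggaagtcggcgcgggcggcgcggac
GAPDH, chr12:6535014-6535263, plus strand: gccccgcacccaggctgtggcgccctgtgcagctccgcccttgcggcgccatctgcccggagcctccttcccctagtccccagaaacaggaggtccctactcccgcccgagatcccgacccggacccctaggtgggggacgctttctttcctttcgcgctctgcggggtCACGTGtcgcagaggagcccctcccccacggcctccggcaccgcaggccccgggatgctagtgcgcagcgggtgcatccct
PKM, chr15:72231191-72231440, minus strand: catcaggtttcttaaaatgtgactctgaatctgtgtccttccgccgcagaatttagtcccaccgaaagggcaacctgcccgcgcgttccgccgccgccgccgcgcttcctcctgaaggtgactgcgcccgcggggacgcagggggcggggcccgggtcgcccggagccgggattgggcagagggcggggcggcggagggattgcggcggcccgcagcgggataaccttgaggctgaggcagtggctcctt
ALDOC, chr17:28576896-28577145, minus strand: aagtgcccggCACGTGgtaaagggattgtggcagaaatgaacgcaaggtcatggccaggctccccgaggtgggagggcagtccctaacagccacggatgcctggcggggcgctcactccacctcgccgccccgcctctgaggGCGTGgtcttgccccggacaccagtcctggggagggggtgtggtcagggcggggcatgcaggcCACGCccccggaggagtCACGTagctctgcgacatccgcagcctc
BNIP3, chr10:131981924-131982173, minus strand: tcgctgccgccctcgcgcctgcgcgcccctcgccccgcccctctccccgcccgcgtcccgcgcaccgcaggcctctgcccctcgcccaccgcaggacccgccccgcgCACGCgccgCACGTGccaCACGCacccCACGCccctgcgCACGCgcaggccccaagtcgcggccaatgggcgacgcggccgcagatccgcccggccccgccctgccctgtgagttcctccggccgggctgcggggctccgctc

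The LDHA window shown held 5 matches to ACGTG, with 2 copies of CACGTG among them, GAPDH held 2 to ACGTG with 1 copy of CACGTG, PGK1 held 2 to ACGTG and 1 to GCGTG, and ENO1 held 2 to GCGTG. PKM, which fell by 0.96 ± 0.21 on the log2 scale, held none. ALDOC and BNIP3, which were not called with both drugs, held 3 and 2 matches to ACGTG with 2 and 4 to GCGTG. Over windows, 25 of 65 from the members (38.5%) held ACGTG, against 18.5% of all 35116 windows, and 23 (35.4%) held GCGTG, against 32.2%. Among the 37 windows of the 17 enzymes, 14 held ACGTG and 10 held GCGTG. Some genes have more than 1 window, and a match is a string of letters and not a bound site.

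Of the HIF subunits and VHL, none was called in any comparison of treatments by edgeR, while DESeq2 called HIF1A lower with both drugs against control and against ibrutinib. HIF1A stood at 31.9, 26.7, 31.7 and 26.8 CPM in JEKO1, 90.8, 86.2, 83.2 and 76.7 in JVM2 and 66.7, 62.6, 71.4 and 62.6 in MAVER1, a change of -0.20 ± 0.08 with both drugs (edgeR, adjusted p = 0.0935). The lines differed by more than the treatments: each JEKO1 library was below, and each JVM2 library above, the libraries of the other lines. EPAS1 stood at 13.1, 24.6, 9.20 and 15.8 CPM in JVM2, at 0.0502, 0.0239, 0.126 and 0.189 in JEKO1 (1 to 8 reads per library) and at 0.0829, 0.215, 0.135 and 0.396 in MAVER1 (3 to 15 reads). In JVM2 both ironomycin libraries were above both without it (log2 ratio 0.91 with ironomycin alone), a change seen in 1 library per treatment and therefore without a replicate. ARNT ranged from 47.4 to 75.7 CPM with a change of -0.18 ± 0.11 with both drugs, and VHL from 83.3 to 107 CPM with -0.03 ± 0.07.

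VEGFA, the vascular growth factor most often read as a HIF output, rose with both drugs. Its level was 39.9, 71.9, 39.3 and 129.5 CPM in JEKO1, 79.5, 92.6, 51.2 and 82.6 in JVM2 and 65.2, 67.4, 49.4 and 92.8 in MAVER1. The 3 libraries with both drugs lay above the 3 controls without overlap, although in JVM2 the gap to its own control was small. The change was 0.77 ± 0.24 (edgeR, adjusted p = 0.0338), but without JEKO1 it was 0.29 (edgeR, adjusted p = 0.273) and without MAVER1 0.90 (edgeR, adjusted p = 0.144). Against ibrutinib alone, VEGFA was higher with both drugs by 1.15 ± 0.24 (edgeR, adjusted p = 0.00939), and both ironomycin libraries of each line exceeded both without it. VEGFB, its relative that acts on fewer receptors, had 64.9, 79.6, 51.1 and 72.2 CPM in JEKO1, 65.5, 60.5, 52.4 and 52.1 in JVM2 and 57.8, 87.2, 48.0 and 84.9 in MAVER1. With ironomycin alone its log2 ratio was -0.11 in JVM2, 0.29 in JEKO1 and 0.59 in MAVER1, and this difference between lines passed (edgeR, adjusted p = 0.00555). The vasodilator peptide ADM had no read in JVM2, 0.327 to 1.46 CPM in JEKO1 and 25.4 to 34.2 CPM in MAVER1. The cytokine MIF was listed at 3 to 45 reads per library and is given no weight here.

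NDRG1, a stress-induced gene that rises when iron is withdrawn as well as in hypoxia, was the member that rose furthest. Its level was low, at 2.31, 3.75, 3.74 and 5.39 CPM in JEKO1, 0.913, 1.37, 0.755 and 1.45 in JVM2 and 1.85, 3.38, 2.37 and 5.14 in MAVER1. Both ironomycin libraries were above both without it in each line. The change was 1.17 ± 0.21 with both drugs (edgeR, adjusted p = 0.0049) and 0.73 ± 0.22 with ironomycin alone, which did not pass (edgeR, adjusted p = 0.0973). Without JEKO1 and without MAVER1 the change with both drugs was 1.13 and 0.98, and neither passed (edgeR, adjusted p = 0.0794 and 0.111).

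None of the mitophagy receptors or pyruvate dehydrogenase kinases was called with both drugs. BNIP3, which marks mitochondria for removal in hypoxia, stood at 46.4, 49.1, 48.8 and 56.1 CPM in JEKO1, 47.2, 61.9, 32.6 and 47.6 in JVM2 and 44.9, 29.4, 37.8 and 30.9 in MAVER1. It was higher with ironomycin in JVM2 and lower in MAVER1, a difference between lines that passed (edgeR, adjusted p = 0.0452), and its change with both drugs was -0.09 ± 0.21. Reads on 42 rows named as BNIP3 pseudogenes came to 3.32 to 17.4% of the BNIP3 reads, so its level is uncertain. Its homologue BNIP3L ranged from 22.2 to 76.9 CPM, and its change with both drugs was 0.15 ± 0.18. PDK1, the pyruvate dehydrogenase kinase that HIF induces, had 18.9, 17.5, 18.6 and 18.8 CPM in JEKO1, 31.2, 36.9, 22.3 and 29.8 in JVM2 and 10.9, 12.2, 10.4 and 11.4 in MAVER1, and its change with both drugs was -0.0024 ± 0.13. PDK3 ranged from 4.75 to 22 CPM, with a log2 fold change of -0.29 ± 0.12.

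The remaining members are regulators and single targets. BHLHE40, a transcription repressor induced by hypoxia and by many other stimuli, stood at 82.6, 104, 76.3 and 131 CPM in JEKO1, 264, 236, 228 and 258 in JVM2 and 41.2, 95.4, 31.0 and 105 in MAVER1. The log2 ratio with ironomycin alone was -0.16 in JVM2, 0.33 in JEKO1 and 1.21 in MAVER1, and this difference between lines passed (edgeR, adjusted p = 0.000411). Its change with both drugs was 0.66 ± 0.28 against control (edgeR, adjusted p = 0.0971) and 0.88 ± 0.28 against ibrutinib (edgeR, adjusted p = 0.0421). Its paralogue BHLHE41 was a JEKO1 transcript, at 34.1, 32.6, 24.4 and 29.4 CPM, against 1.91, 2.01, 1.94 and 2.19 in MAVER1, and its 4 JVM2 libraries held at most 1 read each.

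The kinase-phosphatases PFKFB3 and PFKFB4 set the level of the sugar bisphosphate that drives phosphofructokinase. PFKFB3 read 78.3, 62.7, 72.8 and 67.8 CPM in JEKO1, 87.1, 75.4, 95.3 and 79.8 in JVM2 and 36.6, 23.1, 37.5 and 22.8 in MAVER1, with both ironomycin libraries below both without it in each line. PFKFB4 had 6.91, 4.59, 6.56 and 4.47 CPM in JEKO1, 23.8, 29.7, 10.2 and 21.9 in JVM2 and 4.39, 2.28, 2.34 and 1.85 in MAVER1, and its lowest JVM2 library was that with ibrutinib alone. Neither was called with both drugs (-0.33 ± 0.12 and -0.61 ± 0.33), and for both the ironomycin effect differed between lines (edgeR, adjusted p = 0.0399 and 0.0319). Of the other hypoxia-linked genes, ANKRD37 ranged from 3.8 to 13.7 CPM, the oxidoreductase ERO1A from 15.1 to 118 CPM and MXRA7 from 1.48 to 12.5 CPM, and none of them was called with both drugs. CA9 stood at 0.0251, 0, 0.0754 and 0.0473 CPM in JEKO1, 0, 0.0274, 0.0839 and 0.0269 in JVM2 and 0.138, 0.0268, 0.242 and 0.0527 in MAVER1, levels too low for a comparison.

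**Figure D4:**
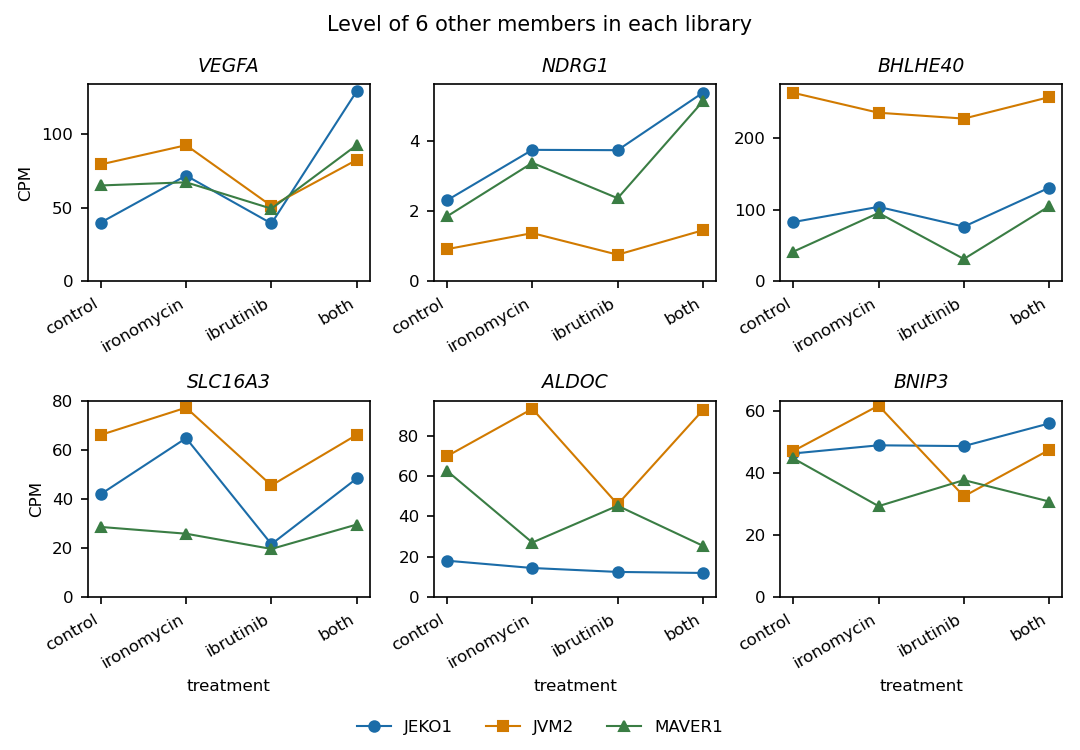
Level of VEGFA, NDRG1, BHLHE40, SLC16A3, ALDOC and BNIP3 in CPM (vertical axes from 0) in each library, with 1 symbol and colour per cell line and lines joining the treatments of a cell line. VEGFA and NDRG1 are above control with both drugs in every line, BHLHE40 in JEKO1 and MAVER1, and ALDOC and BNIP3 go up in JVM2 and down in MAVER1 with ironomycin.

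With ironomycin alone, no member was called by edgeR, against 0.584% of all genes tested (0.412% higher and 0.171% lower), while 15 members had an unadjusted p-value under 0.05, against 22.5% of all genes, and DESeq2 called 11 (2362 of all 18674 genes), namely SLC2A1, GPI, PFKP, TPI1, GAPDH, PGK1, PGAM1, PKM, LDHA and PFKFB3 lower and NDRG1 higher. All 17 enzymes had a log2 fold change under 0, with a median of -0.47 against 0.03 over all genes, and 13 of them were lower in each of the 3 lines. In other fits 1 of the 17 was above 0: with library totals (0.035), without JEKO1 (0.026) and without MAVER1 (0.052). By line, JVM2 had a median of -0.11, JEKO1 of -0.51 and MAVER1 of -0.82. Without JVM2, edgeR called 11 of 39 members, 10 enzymes and SLC2A1, all lower, with LDHA at -1.05 (edgeR, adjusted p = 0.00953), where 1636 of all 17985 genes were called. Over libraries rather than fits, 5 of the 40 members (LDHB, PFKFB3, PFKP, PKM and SLC2A1) had both ironomycin libraries below both without it in every line, a share of 12.5% against 11.1% of all genes, and 2 (NDRG1 and VEGFA) had them above, 5.0% against 9.72%. Within 1 line, members below in that sense made up 52.5% in JEKO1 (28.5% of all genes), 62.5% in MAVER1 (30.7%) and 20.0% in JVM2 (26.7%). Members above made up 17.5% in JEKO1 (32.6%), 22.5% in MAVER1 (33.9%) and 25.0% in JVM2 (26.0%).

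The ironomycin effect differed between the lines for 16 of the 40 members (edgeR, a test of 2 coefficients over 12 libraries, adjusted p-value under 0.05), against 9.38% of all genes tested, and 25 had an unadjusted p-value under 0.05, against 27.3%. Each line has 1 library per treatment, so this test takes the pairs with and without ibrutinib as the 2 measurements of a line's ironomycin effect, and its p-values measure the spread between such pairs of 1 culture and not between separate cultures. Of the 16, 11 were glycolytic enzymes: ALDOC, LDHA, PGAM1, TPI1, PKM, GPI, ALDOA, PGK1, PFKM, ENO1 and ENO2. The others were VEGFB, BNIP3, PFKFB3, PFKFB4 and BHLHE40. With ironomycin alone the log2 ratio of PGAM1 was -0.11 in JVM2, -0.91 in JEKO1 and -0.93 in MAVER1, and that of PKM was -0.17 in JVM2, -0.72 in JEKO1 and -1.17 in MAVER1, with JVM2 closest to 0 for both. Without JVM2, 4 members were called as different between JEKO1 and MAVER1 (ALDOC, BHLHE40, PFKM and VEGFA). Without MAVER1 only ALDOC was called, and without JEKO1 20 members were. Over all genes the calls were 643 of 17985, 260 of 18851 and 1897 of 17875 in these fits. JVM2 and MAVER1 received the same ironomycin dose, and JEKO1 a lower one.

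With ibrutinib alone, no member was called by edgeR or by DESeq2, as 0% of all genes were by edgeR, and 4 members had an unadjusted p-value under 0.05 in edgeR, against 3.64% of all genes: SLC16A3, ANKRD37, SLC2A3 and HK2, all lower. The log2 fold change of every one of the 17 enzymes was under 0, with a median of -0.23 against 0.00 over all genes, and 16 enzymes were lower in each of the 3 lines. In the fit without JEKO1, 1 of the 17 stood at 0.00093. The sizes were small, from -0.04 for PFKL to -0.52 for ALDOC, and the lines did not differ by a test that passed: no member was called for a difference between lines in the ibrutinib effect by edgeR (0% of all genes) or DESeq2, with 3 at an unadjusted p-value under 0.05 by either (2.50% of all genes in edgeR).

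The comparisons of the combination with each drug share libraries with those above. Against ibrutinib alone, 16 members were called with both drugs, 12 lower and 4 higher, where 23.3% of all genes were called, 11.5% lower and 11.8% higher. At an unadjusted p-value under 0.05 the count was 22, against 37.7% of all genes. The lower ones were SLC2A1 and 11 enzymes, led by LDHA (-1.02 ± 0.22, edgeR, adjusted p = 0.0108) and TPI1 (-0.93 ± 0.25, edgeR, adjusted p = 0.0228). The higher ones were VEGFA, SLC16A3, BHLHE40 and NDRG1. That count was 19 of 39 without JVM2 and 0 without JEKO1 or without MAVER1 (14 and 9 at an unadjusted p-value under 0.05), where 5192 of 17985, 1 of 17875 and 6 of 18851 genes were called over all. Against ironomycin alone, no member was called by edgeR (0% of all genes) or by DESeq2, with 6 at an unadjusted p-value under 0.05 in edgeR (10.5% of all genes) and 9 in DESeq2, and 16 of the 17 enzymes were lower, with a median of -0.26. On the log2 scale, the gap between the combination and the 2 single-drug changes added up was called for no member by either tool (0% of all genes by edgeR), with VEGFA (0.81 ± 0.33) and ANKRD37 (0.85 ± 0.29) at an unadjusted p-value under 0.05 in edgeR, against 1.97% of all genes.

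**Figure D5:**
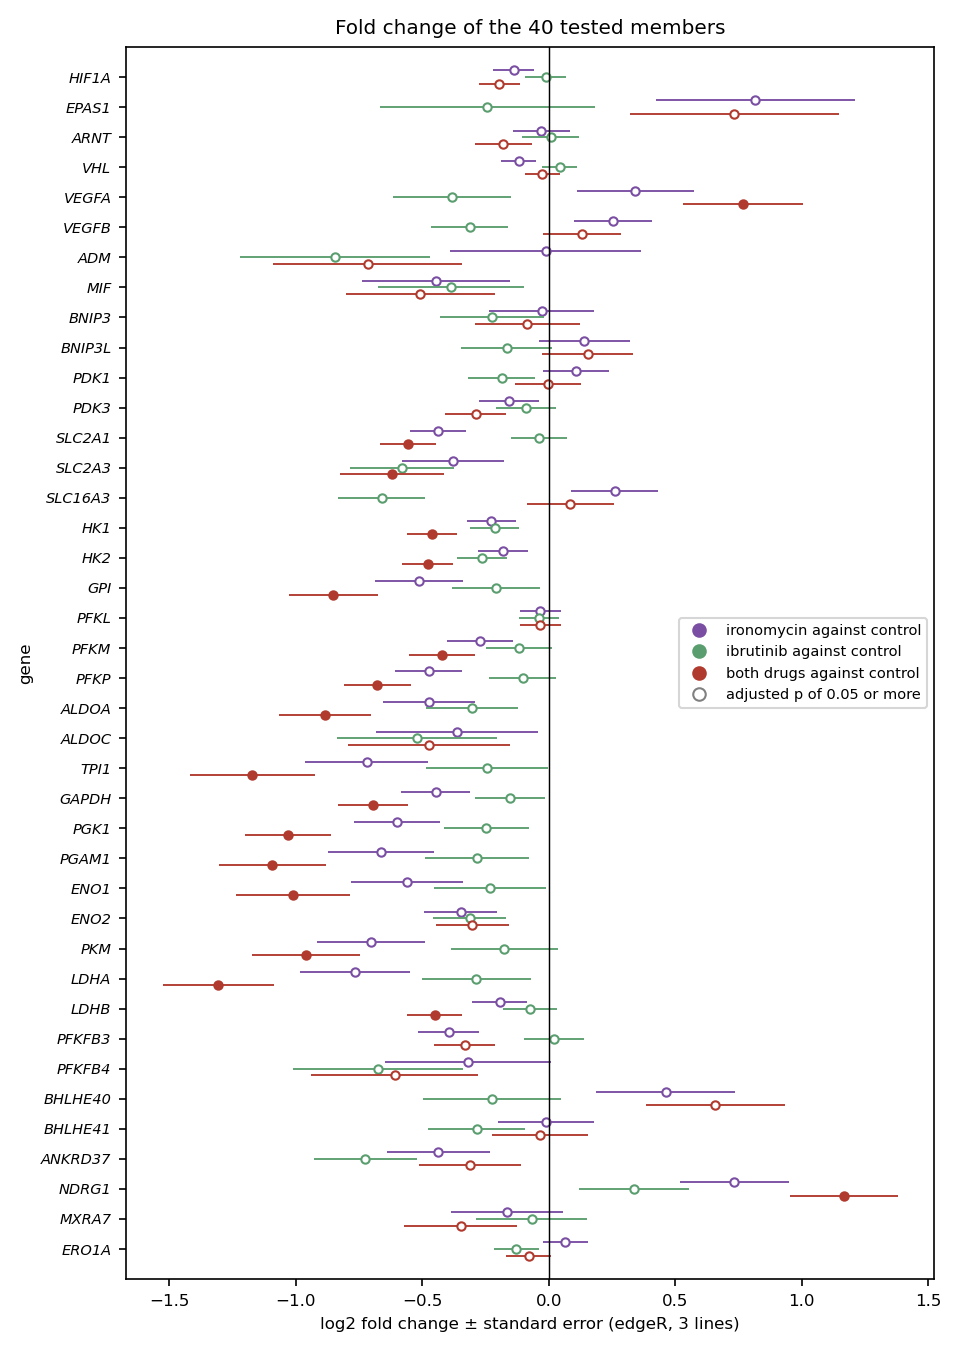
Log2 fold change ± standard error (horizontal axis, edgeR over 3 lines) of the 40 tested members with ironomycin, ibrutinib and both drugs against control; filled points have an adjusted p-value under 0.05. Filled points occur with both drugs alone, from LDHA at -1.31 to NDRG1 at 1.17.

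Levels also differed by line, whatever the treatment. For 25 of the 40 members (62.5%), the 4 libraries of some line lay all above or all below the other 8, against 72.2% of all genes. JVM2 was the line above for 14 members (35.0%, against 23.4% of all genes), namely HIF1A, EPAS1, HK1, PFKP, PGAM1, ENO2, LDHB, SLC2A3, PDK1, PDK3, PFKFB4, ERO1A, ANKRD37 and BHLHE40. JEKO1 was below for 8 (20.0%, against 14.8%) and MAVER1 for 7 (17.5%, against 10.9%). The reverse patterns were rarer than over all genes. JVM2 was below for 4 (10.0%, against 19.2%), JEKO1 above for 1 (2.5%, against 17.3%) and MAVER1 above for 1 (2.5%, against 11.8%). Per kilobase of exon, the control level of GAPDH was 1026 CPM in JEKO1, 1312 in JVM2 and 1089 in MAVER1, and ENO1 and ALDOA followed in each line. The neuronal enolase ENO2 was 0.0613 of ENO1 by reads in the JVM2 control, 0.00781 in JEKO1 and 0.00368 in MAVER1, and with both drugs the ratio was 0.0762, 0.0151 and 0.00677.

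Other genes of these pathways were read from lists. With both drugs, 5 of 23 tested HIF targets outside the members rose and 1 fell. Over all genes tested, 14.2% were called higher and 14.0% lower. The median of these targets was 0.21, against 0.05 over all genes. VLDLR, a lipoprotein receptor, had 1.95 ± 0.44 (edgeR, adjusted p = 0.00984), the secreted factor STC2 1.35 ± 0.40 (edgeR, adjusted p = 0.0286), the lipase inhibitor ANGPTL4 1.30 ± 0.35 (edgeR, adjusted p = 0.0205) and the mitochondrial protein FAM162A -0.81 ± 0.22 (edgeR, adjusted p = 0.0224). Of 13 oxygen-sensing genes, 4 rose and 3 fell: the prolyl hydroxylase EGLN2 had 0.65 ± 0.13 and the VHL complex subunits ELOC and ELOB -0.58 ± 0.12 and -0.58 ± 0.17, while the coactivator CREBBP had 0.42 ± 0.12. In the list of other glycolytic isozymes and side enzymes 4 of 14 fell and none rose (PGAM4, PGAM5, PGM1 and PGM2); PGAM5 is a mitochondrial phosphatase and not a glycolytic enzyme, and PGAM4 is a retrocopy of PGAM1 whose reads cannot be told apart from it with certainty.

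Downstream of pyruvate, 6 of 11 genes fell and 1 rose. DLAT and PDHB, core subunits of pyruvate dehydrogenase, had -0.55 ± 0.10 and -0.45 ± 0.12, PDHA1 had -0.44 ± 0.09, and the mitochondrial pyruvate carrier subunit MPC1 rose by 0.50 ± 0.09 (edgeR, adjusted p = 0.00496). In the pentose phosphate branch 4 of 8 fell and 1 rose, with H6PD at 0.62 ± 0.18, RPIA at -0.61 ± 0.10, TKT at -0.50 ± 0.11 and TALDO1 at -0.48 ± 0.08. Of 7 glycogen genes, GYG1 (-0.41 ± 0.10) and GYS1 (-0.41 ± 0.07) fell and PYGB (0.37 ± 0.11) rose. Among 8 other sugar and lactate carriers 3 fell and 1 rose: SLC2A4 (-0.60 ± 0.19), the MCT chaperone BSG (-0.52 ± 0.15), SLC2A6 (-0.42 ± 0.13) and SLC2A13 (0.56 ± 0.17). All adjusted p-values of these lists are edgeR's over all genes tested, of which 28.2% were called in this comparison, 14.2% higher and 14.0% lower.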

How the data were processed

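Per the labels, RNA was sequenced with paired ends from a stranded library. The deposited counts are whole-number reads per gene, not normalized, made by the authors; the submitters' processing notes name STAR, DESeq2 and the build GRCh37, while the counting tool, annotation and strand setting are not given in the sources used here. Reads from overlapping or antisense genes may therefore be shared. All 12 libraries were fitted in edgeR 4.0.16 (R 4.3.3, limma 3.58.1) with TMM factors, filterByExpr, treatment and cell line as terms and the quasi-likelihood test, with Benjamini-Hochberg adjustment over 18674 genes. Interaction terms tested differences between lines, with the pairs with and without the other drug as the repeats of a line. The line served as the replicate block, since treatments of 1 line share a culture origin. Over 18 pairs of libraries of 1 line, deviations from treatment means correlated at 0.926 to 0.976. Over 36 pairs that differed in line and treatment, they correlated at -0.684 to -0.127. Deviations from a mean of 3 lines cancel within a treatment, which pushes correlations between lines to negative values. The negative values are therefore no evidence for the block. The standard errors given are not an output of edgeR: each is the size of the log2 fold change divided by the square root of its F statistic. Log2 CPM used a prior count of 2, and levels per kilobase used GENCODE 29 exon lengths. DESeq2 1.42.0 was an alternative, with other scalings, no filter, no block, the 6 libraries compared, a minimum fold and each line left out. On simulated counts for both drugs against control (18440 genes), edgeR recovered 85 of 100 genes given a log2 change of 2 and 59 of 100 given 1, and called 17 of 18240 unchanged genes. The 17 false calls stood beside 85 and 59 true ones, a larger share of the calls than the threshold of 0.05. Each changed gene was given the same change in every line. In the data the lines differed, so the simulation does not vouch for the calls made here. The members and lists were chosen with earlier results of these data known. Values per library are given for 31 members: 16 chosen by name whatever they showed, and every other member called in a comparison. Figures used Python 3.11.15 and matplotlib 3.10.9.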

Additional observations from a re-analysis of the deposited data

Results flagged for a closer look

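For 16 members the ironomycin effect differed between JEKO1, JVM2 and MAVER1 by a test of the difference itself (edgeR, 2 interaction coefficients over 12 libraries). The pairs with and without ibrutinib of 1 culture served as the repeats of a line. ALDOC (edgeR, adjusted p = 0.000131) and BHLHE40 (edgeR, adjusted p = 0.000411) had the smallest values. Among enzymes that were lower with ironomycin in JEKO1 and MAVER1, the edgeR adjusted p was 0.00551 for LDHA, 0.00594 for PGAM1, 0.00752 for TPI1, 0.00825 for PKM, 0.0107 for GPI, 0.0129 for ALDOA, 0.0135 for PGK1, 0.0242 for ENO1 and 0.0406 for ENO2. For PFKM, which was lower in MAVER1 and JVM2, it was 0.015. For VEGFB it was 0.00555, for BNIP3 0.0452, for PFKFB3 0.0399 and for PFKFB4 0.0319. The cell line and the ironomycin dose cannot be told apart between JEKO1 and the other lines.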

How the results depend on the processing

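The number of members called depended most on which lines and terms entered the fit. With ironomycin alone it was 0, but 3 without the low-count filter, 11 with DESeq2 and 0 to 11 with a line left out. With both drugs against control it was 18, and 0 with only the 6 libraries compared, 6 with a log2 fold change of at least 1 also required and 0 to 22 with a line left out. With both drugs against ibrutinib it was 16, and 1 with the 6 libraries, 2 with the minimum fold and 0 to 19 with a line left out. The number differing between lines in the ironomycin effect, 16, ran from 1 to 20 with a line left out. Without the replicate block for cell line, 0 members were called in both comparisons of the combination with control and with ibrutinib, as were 0 of all 18674 genes. With the 6 libraries, 5 of 16136 genes were called against control and 306 of 16149 against ibrutinib, so these losses are not particular to the members. A fit without 1 line rests on 2 libraries a treatment.

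Small fold changes turned sign. Among the tested members given values per library, 6 fold changes turned with library totals. BNIP3 was 0.0391 and BHLHE41 0.0663 with ironomycin, and HIF1A was 0.0101 with ibrutinib. With both drugs BNIP3 was 0.0407, PDK1 0.122 and BHLHE41 0.116. The LDHB ratio for ibrutinib in MAVER1 was 0.0032. Of all 23 tested members outside the enzymes, those higher went from 9 to 13 with ironomycin and from 7 to 12 with both drugs. Of the 17 enzymes, 1 turned higher in each, at 0.035 and 0.090. With DESeq2, EPAS1 was 0.0937 with ibrutinib. With a line left out, some fold changes spanned 0. With ironomycin, the range was -0.795 to 0.0522 for ALDOC, -0.0722 to 0.0691 for BHLHE41 and -0.299 to 0.249 for BNIP3. With ibrutinib, the range was -0.486 to 0.0255 for BHLHE41, -0.0666 to 0.0412 for HIF1A, -0.0338 to 0.0795 for PFKFB3 and -0.110 to 0.0463 for SLC2A1. With both drugs, the range was -0.200 to 0.259 for BHLHE41, -0.267 to 0.141 for BNIP3 and -0.0877 to 0.321 for VEGFB. The cause was not tested.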
